A study of Mus musculus with 4 samples.

Results

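The nuclear hormone receptors are a family of transcription factors, and 45 of their genes were followed here among the 32531 gene names of the count files. The 45 genes were taken from a fixed list of symbols, matched exactly, and all 45 were present in the files. The values are counts of ribosome-bound RNA from the deep cerebellar nuclei, the cell groups that carry most of the output of the cerebellum. The RNA was captured by translating ribosome affinity purification (TRAP), in which a ribosomal protein with an EGFP tag is made in chosen cells and the tagged polysomes are pulled down with antibodies against EGFP. There was 1 group of 4 immunopurified libraries, replicates 1 to 4, each from 3 pooled adult mice of the untreated transgenic line JX883 (Slc17a6-EGFP/Rpl10a). Slc17a6 encodes a vesicular glutamate transporter, so the tagged ribosomes are those of cells in which the Slc17a6-driven transgene is active, and other cells of the dissected tissue are meant to carry none. The labels give no sex or exact age, and the line was not compared here with an untagged line. No RNA from before the pull-down was analysed here, so the values are levels in the captured RNA and not enrichments. The labels do not tell whether the pools came from separate litters or days, and p-values here measure only the spread between these libraries, which may be technical.

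Most nuclear receptors hold a DNA-binding domain with zinc fingers and a domain that binds a small lipid-soluble ligand such as a thyroid hormone, a steroid or a retinoid. Some sit on DNA as partners of a retinoid X receptor, some as pairs of the same steroid receptor and some as single molecules, and those with no known natural ligand are called orphan receptors. Bound receptors recruit coactivators or corepressors. In the cerebellum, thyroid hormone and the receptor Rora are known for their part in the growth of Purkinje cells and of the cortex around them.

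The total count over gene names was 9621762 to 10988373 per library, and levels are given as counts scaled to a total of 1000000 (CPM). A count of 0 allowed a level of up to 3 counts, or 0.273 to 0.312 CPM. Slc17a6 itself had 2011 to 2309 CPM. Summed over marker lists, the 9 markers of glutamatergic nuclear neurons had 2698 to 3424 CPM. The 7 Purkinje cell markers had 3748 CPM in replicate 3 and 1414 to 1972 CPM in the others, and the 6 granule cell markers had 1273 CPM in replicate 3 and 545 to 694 CPM in the others. The 6 oligodendrocyte markers had 471 to 1150 CPM, the 6 astrocyte markers 107 to 283 CPM and the 6 microglia markers 3.85 to 11.5 CPM, with C1qa at 0 counts in every library. Replicate 1 stood apart by 5 midbrain markers at 2540 CPM, of which Tcf7l2 made up 2486 CPM, against 15.6 to 52.2 CPM for the sum in the others. The ribosomal RNA gene Rn45s had 141820 and 136402 CPM in replicates 2 and 3, and 49942 and 49243 CPM in replicates 1 and 4. In bulk pull-downs of this kind, fewer cells of a type and less RNA per cell cannot be told apart.

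Of the 45 receptors, 29 were at 1 CPM or more in every library, or 64.4%, beside 34.5% of all gene names. A further 11 had a count but were under 1 CPM in at least 1 library, and 5 had no count in any library. A mean of 10 CPM or more was reached by 21. Summed over the 45 genes, the receptors made up 2058, 1749, 1896 and 2442 CPM in replicates 1 to 4. The sum was highest in replicate 4 and lowest in replicate 2. Esrrg alone gave 936 CPM of it in replicate 4, against 311 to 524 CPM in replicates 1 to 3. The order of the sums is therefore not that of the receptors as a family.

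**Figure D1:**
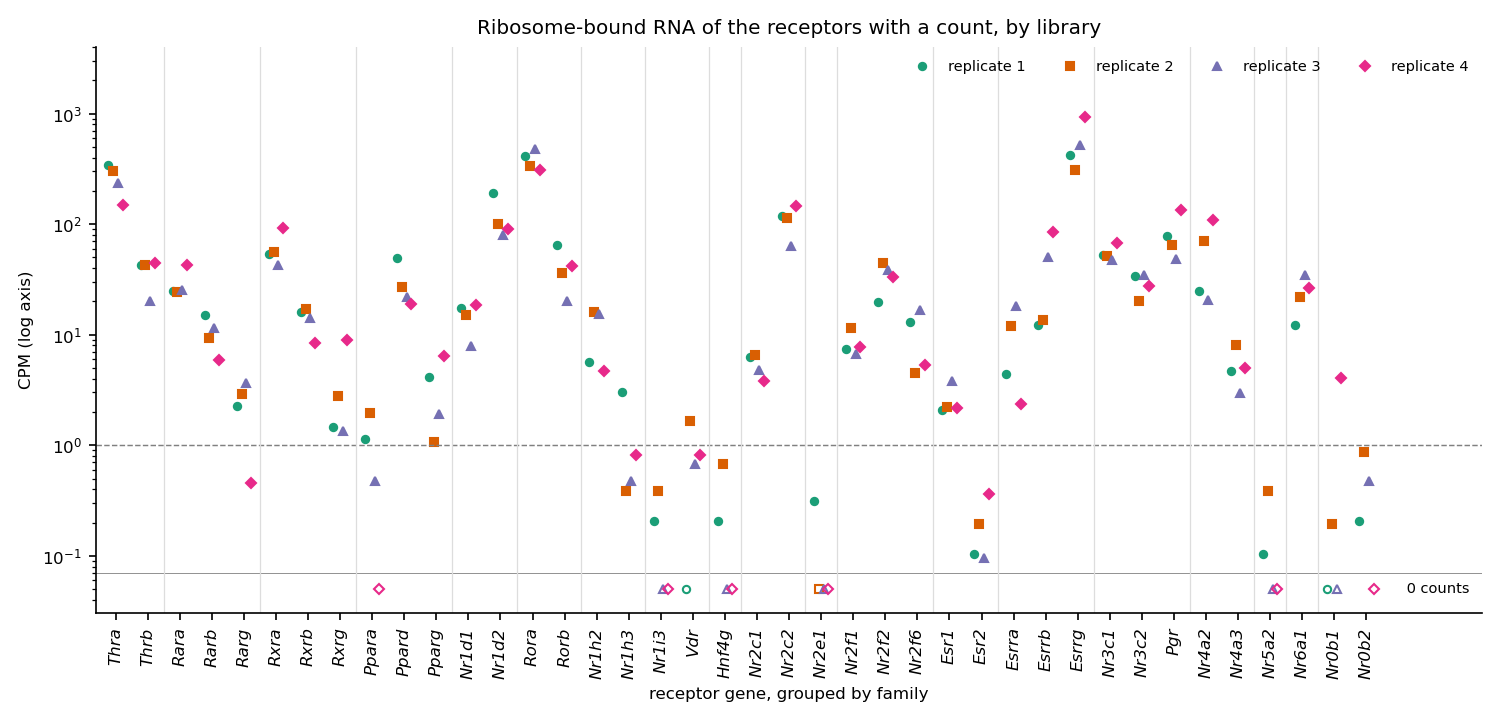
CPM (log axis) of the 40 receptors with a count, grouped by family, in replicates 1 to 4. Open symbols at the bottom mark libraries with 0 counts, and the dashed line is 1 CPM. Esrrg, Rora and Thra lie above 100 CPM in all 4 libraries, and 11 receptors have at least 1 library under the line.

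Levels of different genes were compared as CPM per kilobase of exon, since longer transcripts give more reads. On that scale Esrrg, the orphan estrogen-related receptor gamma, stood first with a mean of 88.4 ± 43.8 CPM per kilobase (SD, n = 4), followed by the thyroid hormone receptor gene Thra with 55.5 ± 18.1, Rora with 29.3 ± 5.94, the Rev-erb gene Nr1d2 with 21.3 ± 9.44 and the orphan receptor gene Nr4a2 with 13.9 ± 10.4. These 5 genes held 67.6 ± 1.59% of the summed receptor level per kilobase, and between 65.6 and 69.0% in each library. The next were Rxra at 11.2, Pgr at 9.50, Nr2c2 at 7.38, Nr3c1 at 7.12 and Rara at 6.73 CPM per kilobase. The lowest of the 29, the estrogen receptor gene Esr1, had 0.189 ± 0.0612 CPM per kilobase.

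Grouped by family, the 3 estrogen-related receptors held 30.6 ± 11.01% of the summed receptor level per kilobase, and the 2 thyroid hormone receptors 20.3 ± 7.45%. The estrogen-related receptors had 23.0, 20.5, 34.8 and 44.2% in replicates 1 to 4, and the thyroid hormone receptors 25.5, 26.4, 19.1 and 10.3%. The first share was highest and the second lowest in replicate 4, but shares of 1 total are not independent of each other. The ROR genes held 10.96 ± 2.74%, the Rev-erb genes 8.53 ± 3.31%, the glucocorticoid, mineralocorticoid and progesterone receptors together 6.77 ± 0.688%, the retinoid X receptors 5.24 ± 0.875% and the NR4A genes 4.64 ± 2.95%.

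The order of neighbouring genes was mostly within their spread. Of the 28 neighbouring pairs in the ranking of the 29 receptors, 4 were in the same order in all 4 libraries, namely Thra above Rora, Rxra above Pgr, Thrb above Nr1d1 and Nr4a3 above Esr1. Only for Nr4a3 and Esr1 did the ranges over libraries not overlap. Esrrg was above Thra in replicates 3 and 4 and below it in replicates 1 and 2, with a mean log2 ratio of 0.62 ± 1.17 (SD, n = 4, two-sided exact sign-flip p = 0.5). With the longest transcript as length instead of all exons, a choice made after the data had been seen, the same ratio was -0.09, so which of the 2 genes stood first was not settled.

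**Figure D2:**
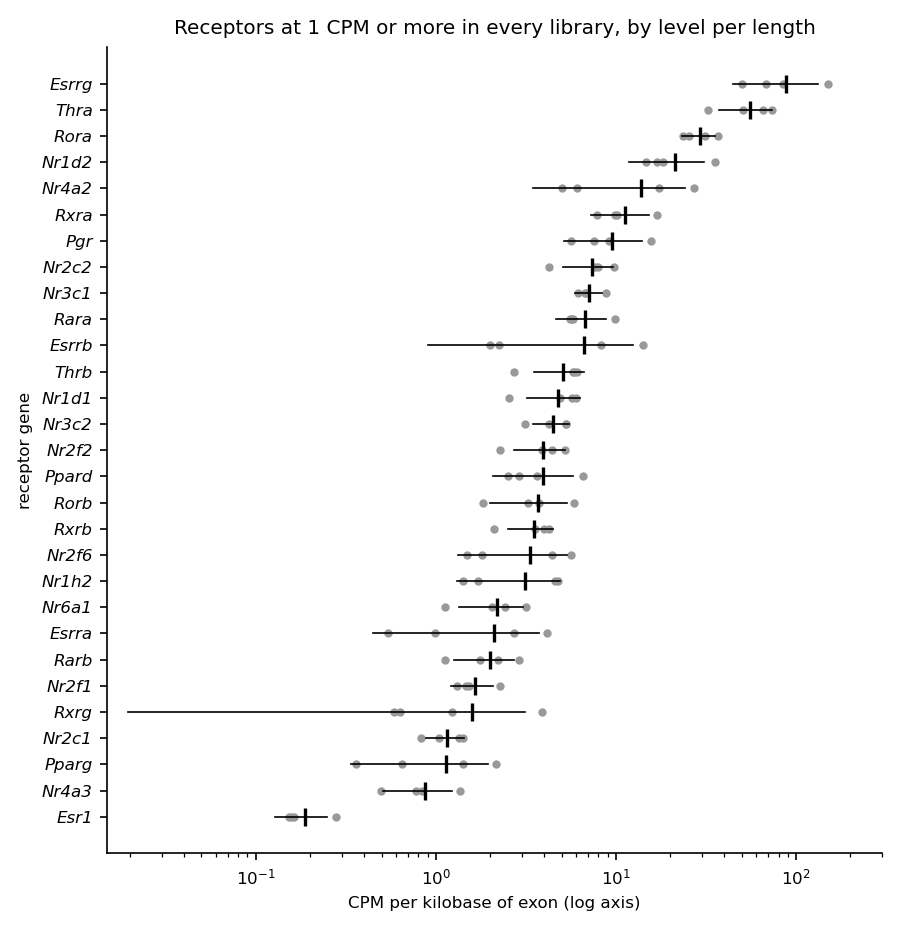
CPM per kilobase of exon (log axis) of the 29 receptors at 1 CPM or more in every library, from the highest mean at the top. Grey points are the 4 libraries, black ticks the means and black lines 1 SD on each side. Esrrg and Thra lead with overlapping points, and Esr1 lies below all others.

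Among the thyroid hormone receptors, Thra had 339, 302, 233 and 149 CPM in replicates 1 to 4 and Thrb had 42.8, 43.1, 20.1 and 44.9 CPM. Thra was lowest in replicate 4, whereas Thrb was lowest in replicate 3 and nearly level in the other libraries. Per kilobase, Thra exceeded Thrb in 4 of 4 libraries, with a mean log2 ratio of 3.42 ± 0.74, or 10.7-fold. Thra lies on chromosome 11 (GRCm38, chr11:98740638-98769006, plus strand), and its exons overlap those of the Rev-erb gene Nr1d1 on the minus strand (chr11:98767932-98775333) by 263 bases. That is 5.7% of the exon bases of Thra and 8.55% of those of Nr1d1. Thra is known to give rise to a form that binds thyroid hormone and a splice form that does not, and counts per gene name do not separate them.

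The genes that supply thyroid hormone to neurons were mostly low. Of 10 such genes, 4 were at 1 CPM or more in every library, and the deiodinase genes Dio1 and Dio3 had no count. The amino acid and thyroid hormone carriers Slc7a5 and Slc3a2 had 45.5 ± 1.26 and 30.4 ± 3.87 CPM. Dio2, the enzyme that makes active hormone and in brain is known mainly from glia, had 9.04, 8.34, 6.52 and 1.37 CPM in replicates 1 to 4. Ttr, the carrier made by choroid plexus, had 44.9, 190, 4.50 and 0 CPM, and the 5 choroid plexus and ependyma markers summed to 52.7, 211, 14.7 and 4.73 CPM in the same libraries. Ttr is itself among these 5 markers and made up most of the sum in replicates 1 and 2, so the sum is not a separate measure. Among 4 known thyroid hormone targets, Klf9 had 157 ± 22.8 CPM, and Nrgn had 280, 28.4, 7.86 and 47.0 CPM with its highest value in replicate 1. Thrsp had 4.26, 11.4, 12.3 and 3.73 CPM.

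The retinoic acid receptors were led by Rara, with 25.05, 24.4, 25.1 and 43.0 CPM in replicates 1 to 4. The first 3 libraries lay within 1 CPM of each other and replicate 4 stood above them. Rarb had 15.2, 9.31, 11.6 and 5.92 CPM, but 38.4% of its exon bases lie opposite an exon on the other strand, chiefly of Top2b, so its counts are uncertain where strand was not used in counting. Rarg had 2.29, 2.91, 3.64 and 0.455 CPM. Per kilobase, Rara exceeded Rarb by a mean log2 ratio of 1.74 ± 0.90 and Rarg by 3.56 ± 1.37, in 4 of 4 libraries each. The retinoid supply was sparse: of 15 genes for making, binding and breaking down retinoic acid, only Fabp5 (29.9 ± 9.84 CPM) and the synthesis enzyme gene Aldh1a1 (21.3 ± 9.34 CPM) were at 1 CPM or more in every library, and the degrading enzyme gene Cyp26a1 had no count. The third highest per kilobase, Dhrs3, had 11.7, 1.36, 0.479 and 17.0 CPM.

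The retinoid X receptors are the shared partners of the thyroid, retinoic acid, fatty acid and oxysterol receptors. Rxra had 54.0, 55.7, 43.1 and 92.5 CPM in replicates 1 to 4, Rxrb had 15.9, 17.0, 14.2 and 8.37 CPM, and Rxrg had 1.46, 2.81, 1.34 and 8.92 CPM. In replicate 4, Rxra and Rxrg were each at their highest and Rxrb at its lowest. Of all names at 1 CPM or more in every library, 25.2% were highest and 37% lowest in replicate 4. Per kilobase, Rxrb was below Rxra in 4 of 4 libraries, with a mean log2 ratio of -1.65 ± 0.87. The log2 ratio of Rxrb to Rxrg per kilobase had a mean of 1.44 ± 1.57, with Rxrb above Rxrg in replicates 1, 2 and 3 and below it in replicate 4.

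Nuclear receptors read variants of the hexamer AGGTCA, so promoter sequences of the receptor genes were searched for it. RefSeq promoter windows on GRCm38.p6, from 250 bases before to 50 bases after a start site, were found for 41 of the 45 genes, 62 windows in all. AGGTCA on either strand lay in 12 of these windows, belonging to 11 genes, or 19.4% of them, beside 16.3% of all 32851 windows. The longer motif AAAGGTCA, which contains AGGTCA and is the element bound by NR4A receptors as single molecules, lay in 2 of the 62 windows (3.23%), beside 1.51% of all windows, and both belonged to retinoid X receptor genes. No window of the 62 held the extended ROR and Rev-erb element (0.219% of all windows), the estrogen-related receptor element TCAAGGTCA (0.423%) or the palindromic estrogen response element (0.07%), all of which but the palindrome contain AGGTCA. A match of letters is a description and does not show binding. The 60 bases around 4 matches are given 5′ to 3′ on the strand of the gene, with the motif in capitals, since Rxra and Rxrg are the 2 genes with the longer motif, and Thrb and Nr1d2 belong to the thyroid hormone and Rev-erb families, which were among the 4 families of highest summed level. They lie at chr1:167618149-167618208 (plus strand, Rxrg), chr2:27709216-27709275 (plus strand, Rxra), chr14:17660749-17660808 (plus strand, Thrb) and chr14:18239151-18239210 (minus strand, Nr1d2). The motif begins at position -90 in Rxrg, -50 in Rxra, -184 in Thrb and -77 in Nr1d2 relative to the start site of its window. The windows of Rxrg and Rxra begin at chr1:167618015 and chr2:27709042, inside the genes, which begin at chr1:167598384 and chr2:27676440. That of Thrb begins at chr14:17660710, also inside its gene, which begins at chr14:17660261. Which start site was used in these cells was not tested.
Rxrg: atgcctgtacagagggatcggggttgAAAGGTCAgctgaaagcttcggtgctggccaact
Rxra: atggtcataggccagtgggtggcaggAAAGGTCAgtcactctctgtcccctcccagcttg
Thrb: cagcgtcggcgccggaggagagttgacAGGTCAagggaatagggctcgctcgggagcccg
Nr1d2: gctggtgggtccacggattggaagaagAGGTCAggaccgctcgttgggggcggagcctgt

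The fatty acid receptors (PPARs) were led by Ppard, with 49.6, 27.3, 21.8 and 18.9 CPM in replicates 1 to 4. Replicate 1 lay above the other 3. Pparg had 4.16, 1.07, 1.92 and 6.37 CPM, and Ppara, known best from liver, had 1.14, 1.94, 0.479 and 0 CPM. Per kilobase, Ppard exceeded Ppara in 4 of 4 libraries by a mean log2 ratio of 3.79 ± 0.87.

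The Rev-erb receptors, which repress clock genes, and the ROR receptors, which activate through the same DNA sites, were among the 4 families of highest summed level per kilobase. Nr1d2 had 191, 99.3, 79.6 and 91.0 CPM in replicates 1 to 4, and Nr1d1 had 17.6, 15.04, 7.86 and 18.4 CPM. Nr1d2 stood above its other values in replicate 1, and Nr1d1 below its other values in replicate 3. Per kilobase, Nr1d2 exceeded Nr1d1 in 4 of 4 libraries by a mean log2 ratio of 2.11 ± 0.53. Rora had 409, 334, 481 and 310 CPM and Rorb had 64.9, 35.8, 20.3 and 41.6 CPM. Replicate 3 held the highest Rora and the lowest Rorb value, and it was also the library with the highest sums of Purkinje and granule cell markers. Purkinje cells are known for strong Rora expression, and their part in its level was not tested. Rora exceeded Rorb per kilobase by a mean log2 ratio of 3.06 ± 0.83 and Nr1d1 by 2.64 ± 0.80, in 4 of 4 libraries each.

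Of 15 other genes of the circadian clock, 14 were at 1 CPM or more in every library, and the list summed to 2001, 1032, 939 and 853 CPM in replicates 1 to 4. Replicate 1 lay above the other 3, and it was also the library with the high sum of midbrain markers, nearly all Tcf7l2. Otx2 and Pax7 of that list were not highest in it. The part of these markers in the clock gene values was not tested. Hlf, a clock output factor, had 712 CPM in replicate 1, against 247, 200 and 225 CPM in replicates 2, 3 and 4. The repressor gene Bhlhe41 had 316 CPM in replicate 1, against 95.8 to 102 CPM, the output factor gene Tef 244 CPM, against 68.8 to 114 CPM, and the period gene Per3 70.2 CPM, against 12.6 to 30.3 CPM. Clock at 183 ± 10.6 CPM and Arntl at 10.6 ± 1.18 CPM varied little between libraries, whereas Cry2 had 145, 96.0, 73.6 and 50.3 CPM and Cry1 45.0, 34.4, 36.5 and 19.7 CPM in replicates 1 to 4. Hlf, Bhlhe41, Tef and Per3 were picked out after their values had been seen, and in edgeR's test of replicate 1 against the other 3 libraries their log2 fold changes were 1.47, 1.48, 1.27 and 1.57, with adjusted p-values between 0.828 and 1. Nr1d2 had a log2 fold change of 0.88 ± 0.39 (SE) in that test, with an unadjusted p of 0.0414 and an adjusted p of 0.9997 by edgeR's quasi-likelihood test. Per kilobase, the clock genes were led by Hlf, Bhlhe40 (125 ± 22.7 CPM) and Bhlhe41.

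**Figure D3:**
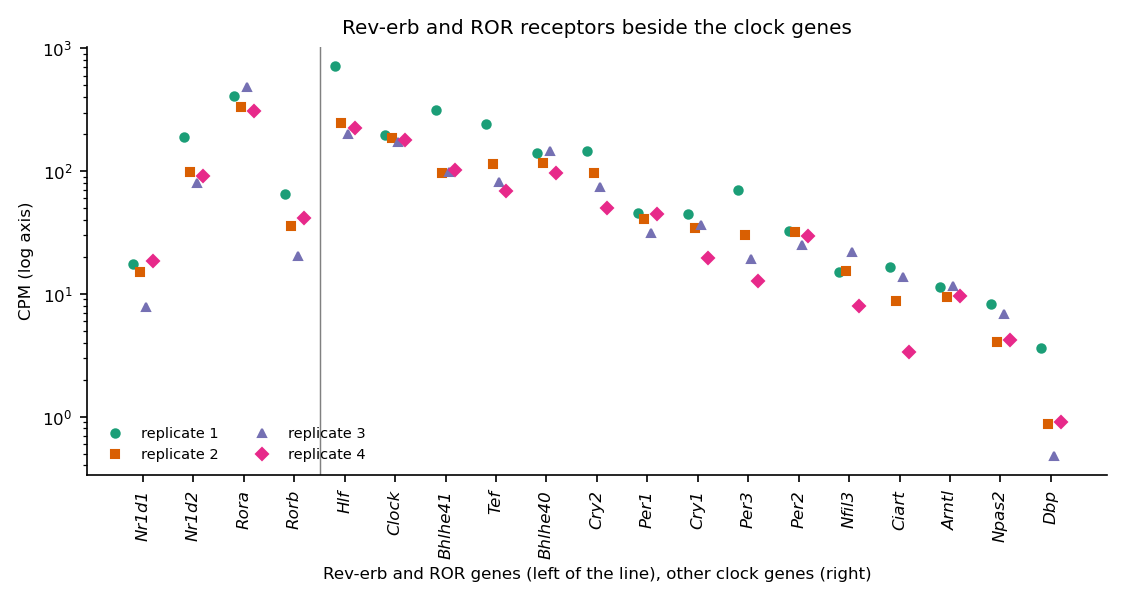
CPM (log axis) of Nr1d1, Nr1d2, Rora and Rorb, left of the line, and of 15 other clock genes, right of it, in replicates 1 to 4. Hlf, Bhlhe41, Tef, Per3 and Nr1d2 are highest in replicate 1, while Clock differs little between libraries.

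The oxysterol receptor Nr1h2 had 5.72, 15.9, 15.3 and 4.73 CPM in replicates 1 to 4, high in replicates 2 and 3 and low in replicates 1 and 4, and its relative Nr1h3 had 3.01, 0.388, 0.479 and 0.819 CPM. Per kilobase, Nr1h2 exceeded Nr1h3 in 4 of 4 libraries, by a mean log2 ratio of 2.64 ± 1.81. The bile acid receptor Nr1h4 had no count. Of 7 genes that make oxysterols or respond to them, 5 were at 1 CPM or more in every library. Per kilobase the 7 were led by Cyp46a1, the neuronal enzyme that makes 24S-hydroxycholesterol, at 33.1 ± 8.63 CPM, the exporter gene Abcg1 at 46.0 ± 11.7 CPM and Mylip at 4.85 ± 3.91 CPM, with 0.455 CPM in replicate 4. Ch25h had no count.

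Among receptors with no known natural ligand, the testicular receptor gene Nr2c2 had 119, 114, 63.2 and 145 CPM in replicates 1 to 4 and Nr2c1 had 6.24, 6.50, 4.79 and 3.82 CPM. Per kilobase the mean log2 ratio of Nr2c2 to Nr2c1 was 2.54 ± 0.62, with Nr2c2 higher in 4 of 4 libraries, although 4657 exon bases of Nr2c2 lie opposite an exon of Mrps25 or another gene on the other strand. The COUP-TF gene Nr2f2 had 19.6, 44.8, 38.3 and 33.3 CPM, lowest in replicate 1. Nr2f1 had 7.48, 11.5, 6.71 and 7.74 CPM, and was below Nr2f2 per kilobase in 4 of 4 libraries (mean log2 ratio -1.18 ± 0.45). Nr2f6 had 13.1, 4.46, 16.8 and 5.37 CPM, and Nr2f1 was above it in 1 of 4 libraries (mean log2 ratio -0.80 ± 1.18). In Nr2f6, 54.4% of the exon bases lie opposite exons of Ocel1. The germ cell nuclear factor gene Nr6a1 had 12.2, 22.1, 34.3 and 26.3 CPM.

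The estrogen-related receptors are orphan receptors that drive genes of mitochondrial energy supply together with the coactivator Ppargc1a. Esrrg (GRCm38, chr1:187608791-188214885, plus strand) had 425, 311, 524 and 936 CPM in replicates 1 to 4. Esrrb had 12.2, 13.5, 50.02 and 85.2 CPM, and Esrra had 4.37, 11.9, 18.1 and 2.37 CPM. Replicate 4 held the highest Esrrg and Esrrb and the lowest Esrra, and Esrrb was low in replicates 1 and 2 and high in replicates 3 and 4. Per kilobase, Esrrg exceeded Esrra by a mean log2 ratio of 5.58 ± 1.74 and Esrrb by 4.05 ± 0.82, in 4 of 4 libraries each.

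Ppargc1a had 496, 398, 501 and 723 CPM in replicates 1 to 4, and at 80.3 CPM per kilobase it was the highest of 13 coactivators, all of which were at 1 CPM or more in every library. Ncoa1 followed at 30.2 and Crebbp at 23.8 CPM per kilobase. Of 8 mitochondrial genes known as targets of the estrogen-related receptors and PPARs, 7 were at 1 CPM or more in every library. Among the highest per kilobase were the ATP synthase gene Atp5b with 2640 ± 488 CPM and the superoxide dismutase gene Sod2 with 642 ± 65.2 CPM. Pdk4 had 3.53, 3.10, 4.98 and 0 CPM. All 10 corepressors were at 1 CPM or more in every library as well, with Ncor1 at 400 ± 51.2 CPM and Sin3a at 90.6 ± 30.5 CPM among the highest per kilobase.

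Among the steroid receptors, the glucocorticoid receptor gene Nr3c1 had 52.4, 51.4, 47.0 and 68.1 CPM in replicates 1 to 4, and the mineralocorticoid receptor gene Nr3c2 had 34.1, 20.3, 34.3 and 27.7 CPM. Nr3c1 was above Nr3c2 per kilobase in 4 of 4 libraries, with a mean log2 ratio of 0.67 ± 0.45, or 1.59-fold. The progesterone receptor gene Pgr had 77.9, 64.3, 48.1 and 134 CPM, highest in replicate 4 and lowest in replicate 3. The estrogen receptor gene Esr1 was low, with 2.08, 2.23, 3.83 and 2.18 CPM, and Esr2, with 1, 2, 1 and 4 counts, was at about the floor of 3 counts. Pgr is known as an estrogen-induced gene in other tissues. Per kilobase the level of Pgr was 9.50 ± 4.38 and that of Esr1 0.189 ± 0.0612 CPM per kilobase.

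Of 10 chaperones that hold steroid receptors, 9 were at 1 CPM or more in every library, led per kilobase by Hsp90ab1 with 1092 ± 110 CPM, Hsp90aa1 with 673 ± 186 CPM and Stip1 with 273 ± 102 CPM. Of 7 known glucocorticoid targets, all 7 were at 1 CPM or more in every library. Sgk1 had 80.1, 52.0, 87.7 and 90.4 CPM in replicates 1 to 4, Tsc22d3 had 77.9, 51.1, 77.2 and 17.7 CPM, and Per1 had 45.8, 40.6, 31.3 and 44.8 CPM. Tsc22d3 was lowest in replicate 4, the library in which Nr3c1 itself was highest. Of 12 measured genes of steroid synthesis and metabolism, 6 were at 1 CPM or more in every library, led per kilobase by Hsd17b10 at 17.8 ± 4.57 CPM, Hsd17b4 at 31.0 ± 9.70 CPM and Srd5a1 at 15.5 ± 4.99 CPM. The aromatase gene Cyp19a1 had 0, 0.194, 0 and 0.455 CPM, and Cyp17a1 and Hsd11b2 had no count.

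The NR4A receptors are orphan receptors that are switched on within minutes to hours by neuronal activity. Nr4a2 had 24.6, 70.3, 20.4 and 110 CPM in replicates 1 to 4, high in replicates 2 and 4 and low in replicates 1 and 3. Nr4a3 had 4.68, 8.15, 2.97 and 5.01 CPM, highest in replicate 2 and next in replicate 4. Per kilobase, Nr4a2 exceeded Nr4a3 in 4 of 4 libraries, with a mean log2 ratio of 3.59 ± 0.90.

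**Figure D4:**
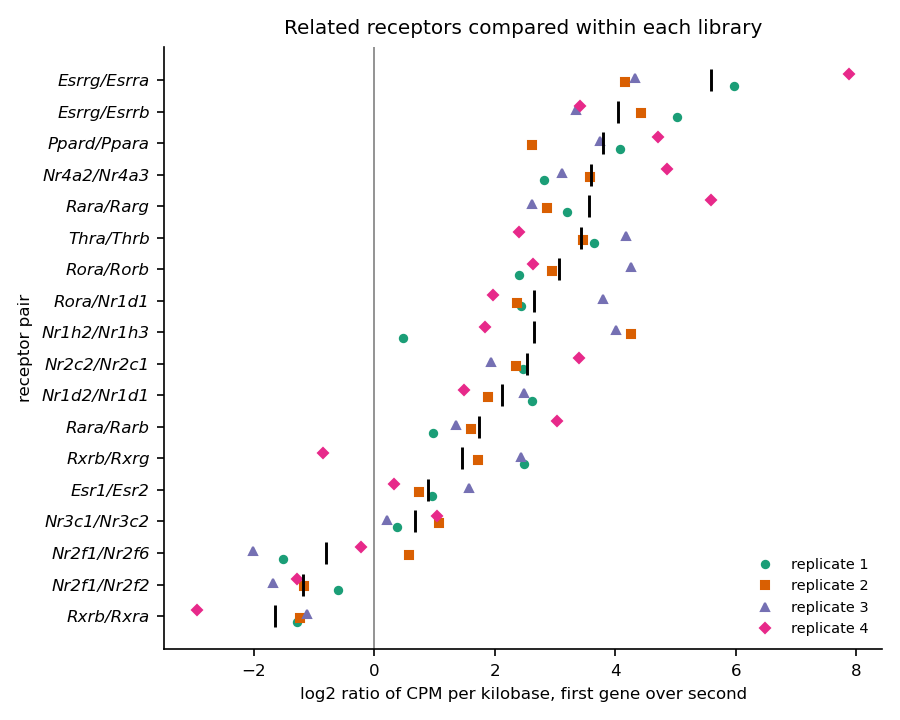
Log2 ratio of CPM per kilobase, the first gene over the second, for 18 pairs of related receptors in replicates 1 to 4, with black ticks at the means. In 14 pairs the first gene is higher in all 4 libraries, in 2 the second is, and in 2 the libraries differ in direction.

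Over the 18 pairs of related receptors, the first gene was higher in all 4 libraries in 14 pairs, the second in 2, and the direction differed between libraries in 2. With 4 libraries the smallest two-sided p that the exact sign-flip test can give is 0.125, and all 16 pairs of constant direction reached it (0.141 after Benjamini-Hochberg adjustment over 18 pairs), so no pair could pass 0.05. Esr1 was above Esr2 by a mean log2 ratio of 0.89 ± 0.52. The 0.1 CPM per kilobase added to each value before the log exceeded the Esr2 mean of 0.056 CPM per kilobase. That addition and the few counts of Esr2 limit what the ratio shows. The mean log2 ratio moved by more than 1.5-fold when 1 library was left out in 4 pairs: it was 2.21 for Rxrb to Rxrg, 2.89 for Rara to Rarg and 4.82 for Esrrg to Esrra without replicate 4, and 3.36 for Nr1h2 to Nr1h3 without replicate 1.

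The remaining receptors were at or below about 4 CPM. Nr0b1, the DAX1 gene, had 0, 2, 0 and 45 counts in replicates 1 to 4, or up to 4.10 CPM in replicate 4. The vitamin D receptor gene Vdr had 0, 1.65, 0.671 and 0.819 CPM, and Nr0b2, the SHP gene, had 0.208, 0.873, 0.479 and 0 CPM. Nr1i3, Hnf4g and Nr5a2 had 1 to 7 counts in replicates 1 and 2 and none in replicates 3 and 4. In Nr1i3, 3304 exon bases of 4414 lie opposite exons of Tomm40l, so its counts are uncertain. Nr2e1 had 3 counts in replicate 1 only. The 5 receptors with no count were the bile acid receptor Nr1h4, the xenobiotic receptor Nr1i2, the hepatocyte factor Hnf4a, the retinal factor Nr2e3 and the steroidogenic factor Nr5a1. For these 5, a level of up to 0.273 to 0.312 CPM in each library could not be told from 0.

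The median spread of the receptors between libraries lay between the quartiles of all genes, but several receptors spread more than most genes of like level. The median SD of log2(CPM + 0.5) was 0.54 over the 29 receptors, beside 0.48 over the 11213 names at 1 CPM or more in every library, whose quartiles were 0.32 and 0.71. The steadiest receptor was Nr3c1 with an SD of 0.23, followed by Rora with 0.29. The widest were Esrrb with 1.37, Esrra with 1.23, Nr4a2 with 1.16 and Rxrg with 1.09. Among names of a mean level within 1.5 times that of the gene, 99.0% had a smaller SD than Esrrb, 98.9% than Nr4a2 and 96.1% than Esrrg. The share was 93.4% for Rxrg, 91.1% for Esrra, 85.7% for Pgr, 85.1% for Thra and 81.3% for Nr1d2. In contrast, 48.0% had a smaller SD than Rora, 16.8% than Nr3c1, 8.2% than Nr2f1 and 7.3% than Nr2c1.

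Differences of 1 library from the remaining 3 were tested with edgeR's quasi-likelihood test on the 15083 genes that passed the filter on low counts, 34 receptors among them. With an adjusted p under 0.05, no receptor was called in any of the 4 comparisons. With 1 library against 3 and 2 residual degrees of freedom, a lack of calls does not show that the receptors were steady. The background was itself near 0: in replicate 4 against the others 0.0398% of all genes were called higher and 0.00663% lower, in replicate 1 against the others 0.0199% higher and 0% lower, and in replicates 2 and 3 against the others 0% in each direction. At an unadjusted p under 0.05, 8 of the 34 receptors passed in replicate 4, beside 14.7% of all genes. In replicate 1 there were 2 (3.3% of all genes), in replicate 2 none (0.517%) and in replicate 3 there was 1 (7.01%). DESeq2's Wald test called 1 of 30 receptors with an adjusted p, Esrrg in replicate 4, beside 3.22% of all genes, a share near the background. It called no receptor in replicates 1, 2 and 3, beside 0.148, 0.0267 and 0.634% of all genes.

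The 8 receptors of replicate 4 were named after their values were seen, and none passes adjustment in edgeR's test. Esrrg had 936 CPM in replicate 4, against 311 to 524 CPM in replicates 1 to 3, a log2 fold change of 1.31 ± 0.31 (SE) with an adjusted p of 0.161 in edgeR's test and of 0.0295 in DESeq2's. Over 7 alternatives the adjusted p for Esrrg lay between 0.00267 (edgeR without a filter on low counts) and 0.256 (edgeR without replicate 2), and 3 of the 7 passed, the third being edgeR without replicate 3 (0.0441). Pgr had 134 CPM in replicate 4, against 48.1 to 77.9 CPM, a log2 fold change of 1.25 ± 0.35 with an edgeR adjusted p of 0.189. For Rxra the log2 fold change of replicate 4 over the others was 1.02 ± 0.36, for Rxrg 2.39 ± 1.03, for Esrrb 1.88 ± 0.76, for Nr4a2 1.65 ± 0.63 and for Nr0b1 5.86 ± 2.16, with edgeR adjusted p-values between 0.252 and 0.317. Over the same 7 alternatives the adjusted p lay between 0.0053 and 0.316 for Esrrb, between 0.00758 and 0.323 for Nr4a2 and between 0.0479 and 0.304 for Pgr. Esrrb, Nr4a2 and Pgr passed without the filter, Pgr in no other alternative. Esrrb also passed without replicate 3 and Nr4a2 without replicate 2. Each pass with a library left out, including that of Esrrg, dropped the library next highest to replicate 4 for that gene. For Esrrb, replicate 3 had 50.02 CPM, against 12.2 and 13.5 CPM in replicates 1 and 2. For Nr4a2, replicate 2 had 70.3 CPM, against 24.6 and 20.4 CPM in replicates 1 and 3. Such a fit sets 1 library against 2, so these passes do not show that replicate 4 stood apart from all 3. Without the filter 4 of 40 receptors were called, beside 2.22% of all genes. Without replicates 1, 2 and 3 in turn edgeR called 0, 1 and 2 receptors, beside 0.857, 0.506 and 0.561% of all genes. Thra, at 149 CPM in replicate 4, against 233 to 339 CPM, had a log2 fold change of -0.80 ± 0.33 and an edgeR adjusted p of 0.298.

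In the other comparisons the receptors with an unadjusted p under 0.05 were Nr1d2 and Esrrb in replicate 1, with log2 fold changes of 0.88 ± 0.39 and -2.25 ± 0.89, and Nr4a2 in replicate 3, with -1.76 ± 0.78 (edgeR adjusted p between 0.698 and 1). In size, 12 of the 34 receptors tested (35.3%) were past 2-fold in replicate 4 against the others, beside 38.2% of all genes, a share near the background. Their median log2 fold change was 0.08, beside -0.16 over all genes. Replicate 4 gave the highest CPM of the 4 libraries for 12 of the 29 receptors at 1 CPM or more in every library, beside 25.2% of such names, and the lowest for 8, beside 37%. Replicate 3 gave the highest for 6, beside 25%, and the lowest for 12, beside 27.8%. Replicate 1 gave the highest for 5, beside 34.7%, and the lowest for 4, beside 17.3%. Replicate 2 gave the highest for 6, beside 15.1%, and the lowest for 5, beside 17.8%. Replicate 4 carries the library number 1476 and replicates 1 to 3 the numbers 1300, 1301 and 1302, so a difference in preparation between them cannot be told apart from a difference between pools of mice. Replicate 4 had the lowest sums of Purkinje cell and astrocyte markers (1414 and 107 CPM) and the highest of glutamatergic nuclear neuron markers (3424 CPM), and the part of these in the receptor values was not tested.

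**Figure D5:**
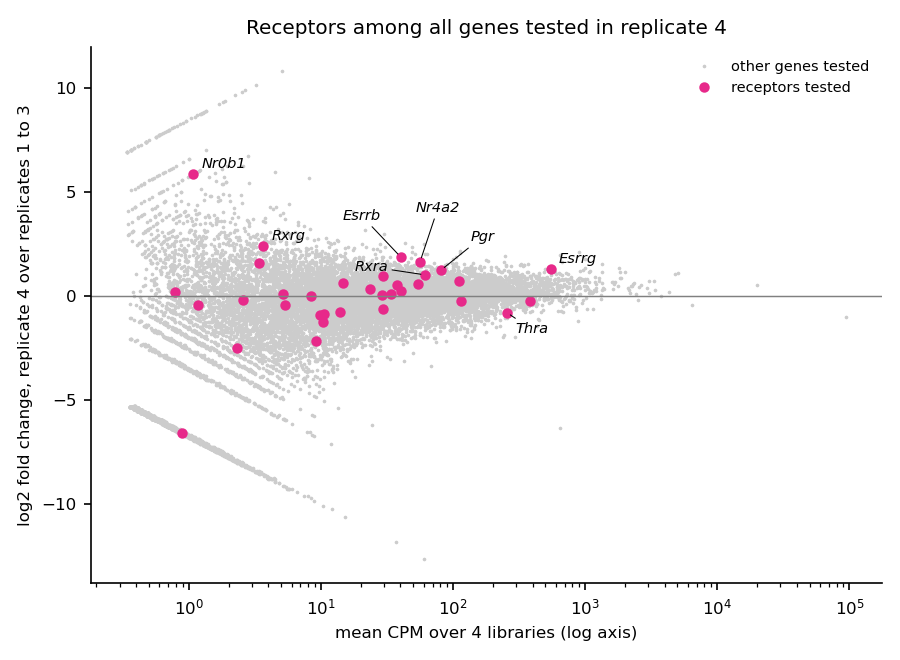
Log2 fold change of replicate 4 over replicates 1 to 3 by edgeR against mean CPM over the 4 libraries (log axis) for 15083 genes, with 34 receptors in pink. The labelled receptors had an unadjusted p under 0.05, and none was called after adjustment over all genes.

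Of the 109 genes in the lists of cofactors, ligand supply and targets, 96 were tested in the same comparisons. None was called in any of the 4 by edgeR, with 6, 0, 5 and 18 at an unadjusted p under 0.05 in replicates 1 to 4, beside 3.3, 0.517, 7.01 and 14.7% of all genes. DESeq2's Wald test called Nrgn in replicate 1 and Slco1c1, Stip1, Tsc22d3 and Ttr in replicate 4, the library in which it called most genes. How many of the listed genes that test covered was not counted, so their share cannot be set beside that of all genes. These calls are no result about the lists. Stip1 had 424 CPM in replicate 4, against 201 to 239 CPM in the others (edgeR log2 fold change 1.09 ± 0.28, adjusted p = 0.173), and Tsc22d3 had 17.7 CPM, against 51.1 to 77.9 CPM (-1.80 ± 0.47, adjusted p = 0.17). Slco1c1, a thyroid hormone transporter known from vessels and astrocytes, had 0.091 CPM in replicate 4, against 2.33 to 10.9 CPM in the others. Ppargc1a had a log2 fold change of 0.79 ± 0.27 in replicate 4 (edgeR adjusted p = 0.241).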

How the data were processed

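The deposited files, 1 per library, hold whole-number counts of reads for each gene name. Their 5 summary rows entered neither the totals nor the tests. The submitters' processing notes name STAR 2.0.0e, HTSeq and mm10. How strand was treated in counting, and with which annotation, is not given in the sources used here. Overlapping genes on opposite strands may therefore share reads. Counts carry no molecular identifiers, so floors of 3 counts cover counting error only. Reads assigned to no gene made up 14.1 to 21.1% and reads aligned to more than 1 place 14.2 to 20.6% of the records.

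CPM was computed over all gene names. Exon lengths (union of exons) and coordinates came from GENCODE M21 on GRCm38, the same build as mm10. A length was found for all 45 receptors, for 71.2% of all names and for 94.3% of the names at 1 CPM in every library. Promoter windows came from RefSeq (GRCm38.p6). Between any 2 libraries the chi-square per degree of freedom over genes was 32.9 to 119, above sampling noise, so the files do not hold the same counts, which does not show that the pools were separate.

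Pairs were compared on log2(CPM per kilobase + 0.1) with exact sign-flip tests, two-sided. Folds on that scale understate the ratios of low genes. Each library was tested against the other 3 on the counts with edgeR 4.0.16 in R 4.3.3 (TMM, filterByExpr, glmQLFit robust, Benjamini-Hochberg over all genes), which leaves 2 residual degrees of freedom. The SE of a fold change was derived from its size and the F value. The script was tested on simulated data, where at the spread of these libraries it recovered almost none of the moderate changes. A lack of calls by edgeR therefore says little about such changes. DESeq2 1.42.0, other lengths, pseudocounts and filters, totals without Rn45s and leaving out each library were alternatives. The members and the gene lists were chosen with earlier results of these data known. Named are the receptors with a count, those of the pairs, and of each list the 3 genes highest per kilobase and any gene called. Some genes of the lists are not reported here, and counts and sums over lists still include them. Other genes of the lists and those singled out for a library were chosen after their values were seen.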

Additional observations from a re-analysis of the deposited data

Results flagged for a closer look

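Of 58 sets of 4 values, those of the receptors with a count and of their pairs, 7 had 1 library far from the other 3 by Dixon's ratio. The chance rate of about 1 in 20 holds for independent, normally distributed values. CPM with zeros and pairs that share genes with single receptors are not such values. The ratio was not computed over all genes, so the 7 are not a result about the receptors. Thrb had 20.1 CPM in replicate 3, against 42.8 to 44.9 CPM in the others. Rara had 43.0 CPM in replicate 4, against 24.4 to 25.1 CPM. Esr1 had 3.83 CPM in replicate 3, against 2.08 to 2.23 CPM. The log2 ratio of Rxrb to Rxra per kilobase was -2.95 in replicate 4, against -1.28 to -1.12. At low levels, Nr1h3 had 3.01 CPM in replicate 1, against 0.388 to 0.819 CPM, Nr0b1 had 4.10 CPM in replicate 4, against 0 to 0.194 CPM, and Nr2e1 had 0.312 CPM in replicate 1, against 0 CPM in the others. No cause of these values was tested.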

How the results depend on the processing

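No paired analysis was possible because all 4 libraries form 1 group. The number of receptors at 1 CPM or more in every library stayed between 29 and 30 when each library was left out. The counts of genes called depended on the tool and the filter. In replicates 1, 2, 3 and 4 against the others edgeR called 3, 0, 0 and 7 genes, and DESeq2's Wald test 25, 5, 91 and 427. Without a filter on low counts edgeR called 32, 0, 86 and 416. Leaving out each of the other libraries gave 7 to 31, 0 to 2, 1 to 33 and 74 to 125. Of the receptors, 1 was called in replicate 4 by DESeq2, 4 without the filter, and 0 to 2 when a library was left out. The cause was not tested. The log2 ratio of Esrrg to Thra turned to -0.085 with the longest transcript, and was 0.08 to 0.95 when a library was left out. The other 167 pair values kept their direction. All 240 level values moved by less than 1 SD between libraries. Leaving out 1 of 4 libraries cannot move a mean by that much, so for those values the outcome was fixed in advance. With each library left out, the log2 ratio was 1.10 to 2.21 for Rxrb to Rxrg, 2.89 to 3.88 for Rara to Rarg, 4.82 to 6.06 for Esrrg to Esrra, 2.10 to 3.36 for Nr1h2 to Nr1h3 and -1.25 to -0.39 for Nr2f1 to Nr2f6. With a pseudocount of 0.1 CPM, the SD of log2 CPM of 9 receptors of low level moved, to 0.58 to 2.54. Receptors under 1 CPM rest on few counts. The 4 libraries of 1 group limit edgeR's tests to 2 residual degrees of freedom, and to fewer where a library was left out.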
